A study of Schmidtea mediterranea with 18 samples.

Results

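Of the 41745 transcripts quantified in planarians injected with *hippo* or control double-stranded RNA, 120 were close to control levels after 1 week of inhibition and clearly above them after both 3 and 4 weeks. These late responders were chosen by their measured levels. The effect of a week was the difference between *hippo (RNAi)* animals and controls in log2(mean TPM + 1), where TPM is a level scaled to transcript length and to the sum over all transcripts of a library. A member averaged 5 TPM or more across all 18 libraries and had an effect of at least 0.7 at 3 and at 4 weeks with every *hippo (RNAi)* library above every control library of that week, and an effect below 0.3 at 1 week. Transcripts carrying an assembly number from the study's list of 20 cell cycle genes were left out. Because these values chose the members, the effects of *hippo* RNAi on them are given as a description and carry no test.

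The animals were asexual *Schmidtea mediterranea* of the clonal BCN-10 line, starved before and throughout the experiment. Double-stranded RNA of *gfp*, which has no target in these animals, served as the control treatment, and the other animals received that of *hippo*, injected weekly for up to 3 weeks. Whole animals were taken for RNA at 1, 3 and 4 weeks, with 3 libraries per treatment and time and 5 pooled animals per library, which makes 6 groups and 18 libraries of polyA RNA. All animals of both treatments therefore shared one genotype, the injections and the lack of food, and no library came from uninjected or fed animals. In whole-animal RNA, a lower number of cells of a type and less RNA per cell cannot be told apart.

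Hippo signalling runs through a chain of kinases that holds the transcriptional coactivator Yorkie out of the nucleus, and it is known across animals for its part in proliferation, apoptosis and cell fate. In planarians, neoblasts are the dividing cells from which differentiated tissues are renewed, and starved animals shrink while this turnover goes on. Late differences in an RNAi series of this kind are read against controls that are themselves starving for longer, so levels are given here for both treatments at each time. The identifiers of the table are those of the dd_Smed_v6 transcriptome, and no source used here paired a member with a gene name. Members are therefore described by identifier, with no function given. For the same reason, neither the level of *hippo* itself nor that of any cell type marker was checked in these libraries.

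The members spanned 115 assembly numbers, the first number in an identifier, which groups related transcripts. For 81 members the number held a single transcript, and 4 numbers held more than 1 member, 9 members in all. Mean levels over the 18 libraries ran from 5.17 to 754 TPM with a median of 18.2 TPM. Most members were of low to moderate level, 19 having at least 100 TPM and 20 having less than 10 TPM. For 11 members the mean over the 9 control libraries was below 5 TPM, so that they passed the limit on levels only through the *hippo (RNAi)* libraries. The depth of the libraries is unknown, since TPM values keep no trace of it.

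At 1 week the effect had a median of 0.18 over the members and a range from -0.25 to 0.30. At 3 weeks the median was 0.82 with a range from 0.70 to 2.88, and at 4 weeks it was 0.92 with a range from 0.71 to 3.42. In levels, the median ratio of *hippo (RNAi)* to control means was 1.15 at 1 week, 1.84 at 3 weeks and 1.97 at 4 weeks. Over the 28735 transcripts averaging 1 TPM or more, which were those tested, the median effects were 0.02, 0.00 and 0.00. The typical member was thus just under a doubling above controls at the end, and only a few members went far beyond that. The effect was at least 1 for 19 members at 3 weeks and for 43 at 4 weeks, and it was at least 2 at 4 weeks for 4 members.

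**Figure D1:**
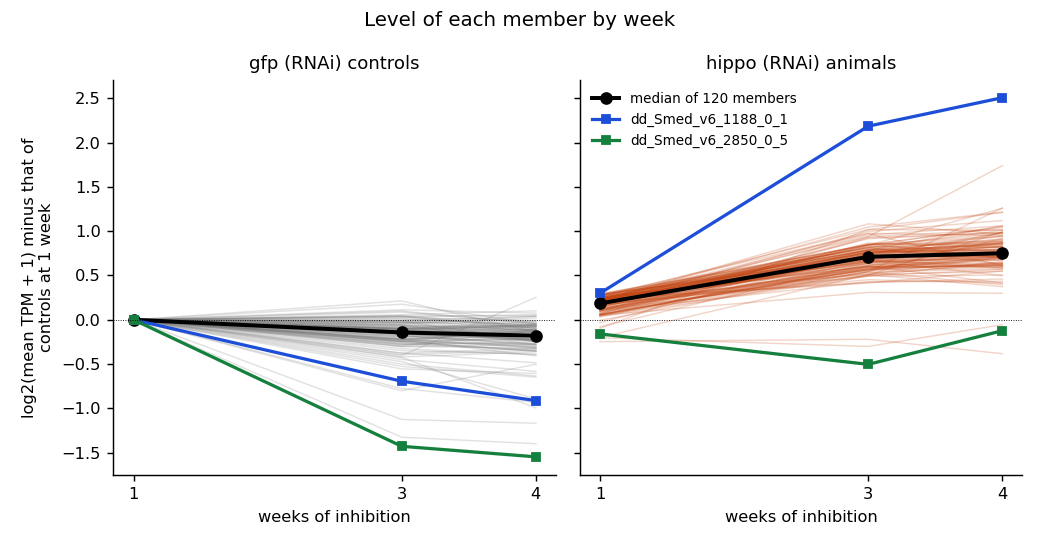
Level of each of the 120 members at 1, 3 and 4 weeks of inhibition, as log2(mean TPM + 1) minus the value in controls at 1 week, in controls (left) and *hippo (RNAi)* animals (right). Thin lines are members, the black line is their median, and 2 members are in colour. The control lines drift slightly downwards to a median of -0.18 at 4 weeks, whereas most *hippo (RNAi)* lines climb between 1 and 3 weeks and are nearly level afterwards.

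For background, limma called 10.2% of all tested transcripts higher in *hippo (RNAi)* animals at 3 weeks and 13.0% at 4 weeks, at an adjusted p below 0.05. By the same fit 118 of the 120 members were called higher in each of these weeks, which follows from the way they were chosen. At 1 week the fit called 17 members higher, beside 0.654% of all tested transcripts and 1.08% of those of at least 5 TPM. It called 4 members without library 249O, 9 without 250O, 15 without 251O, 31 without 252O, 5 without 253O and 3 without 254O. With the libraries of 1 week alone it called 0. Every *hippo (RNAi)* library was above every control library at 1 week for 52 members, beside 9.02% of tested transcripts. The effect at 1 week was above 0 for 112 members, above 0.1 for 93 and above 0.2 for 54, while 55.3% of tested transcripts had an effect above 0. The label of a late response therefore covers many members that already had small positive effects at 1 week, which the rule allowed up to 0.3.

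The limit at 1 week cut through a continuous range. With the criteria at 3 and 4 weeks alone, 253 transcripts were found, with a median effect of 0.31 at 1 week and a range from -0.25 to 1.499. Of these, 133 had an effect of 0.3 or more at 1 week, and 116 lay between 0.2 and 0.4. The 133 left out had median effects of 1.03 at 3 weeks and 1.13 at 4 weeks, above the medians of the members. The member nearest below the limit was dd_Smed_v6_1188_0_1 at 0.2996 and the nearest transcript above it was dd_Smed_v6_1842_0_1 at 0.3026.

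Transcripts also lay near the other limits. On the mean level, dd_Smed_v6_12943_0_1 was inside with 5.17 TPM and dd_Smed_v6_24590_0_1 outside with 4.96 TPM. On the effect at 3 weeks, dd_Smed_v6_2777_0_2 was inside with 0.701 and dd_Smed_v6_2535_0_1 outside with 0.6997. On the effect at 4 weeks, dd_Smed_v6_991_0_1 was inside with 0.711 and dd_Smed_v6_37831_0_1 outside with 0.699. Requiring separate libraries removed few transcripts, since 123 met all the other criteria. Of the study's 20 listed cell cycle genes, 1 met every value of the rule and was left out by its number, an insulin-like growth factor transcript, dd_Smed_v6_3513_0_1. At 1, 3 and 4 weeks its control means were 24.2, 22.6 and 23.4 TPM, against 29.2, 48.3 and 53.6 TPM under *hippo* RNAi.

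The largest effects belonged to dd_Smed_v6_1188_0_1. In controls this transcript was at 36.7, 35.0 and 37.0 TPM at 1 week, 18.1, 25.8 and 22.2 TPM at 3 weeks, and 19.5, 16.9 and 19.9 TPM at 4 weeks. In *hippo (RNAi)* animals it was at 43.8, 57.9 and 32.7 TPM at 1 week, 148, 170 and 187 TPM at 3 weeks, and 215, 216 and 200 TPM at 4 weeks. The treatments overlapped at 1 week and lay far apart afterwards, with the lowest *hippo (RNAi)* library at 3 weeks well above the highest control library of any week. The ratio of means was 7.65 at 3 weeks and 11.2 at 4 weeks. Part of that ratio lay in the controls, which were lower at 3 and 4 weeks than at 1 week.

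The 3 members next in mean effect shared a further growth of the effect between 3 and 4 weeks. In *hippo (RNAi)* animals dd_Smed_v6_2777_0_5 was at 8.52, 6.12 and 4.79 TPM at 1 week, 12.9, 9.07 and 11.9 TPM at 3 weeks, and 20.8, 20.1 and 20.3 TPM at 4 weeks, while its control means were 5.41, 3.45 and 3.09 TPM. All its libraries at 4 weeks were above all those at 3 weeks. For dd_Smed_v6_11213_0_1 the *hippo (RNAi)* libraries held 16.2, 15.8 and 11.2 TPM at 1 week, 23.0, 19.99 and 21.7 TPM at 3 weeks, and 41.1, 30.96 and 36.2 TPM at 4 weeks. Its control means were 14.5, 8.04 and 7.11 TPM, so that control and *hippo (RNAi)* levels were alike at 1 week and moved apart in both directions. For dd_Smed_v6_9375_0_1 the *hippo (RNAi)* libraries held 21.1, 21.1 and 19.3 TPM at 1 week, 29.5, 35.5 and 37.1 TPM at 3 weeks, and 56.4, 40.3 and 40.7 TPM at 4 weeks. Its highest value at 4 weeks, in library 268O, stood apart from the others, which were near those of 3 weeks. Its control means were 18.6, 13.1 and 9.54 TPM. From 3 to 4 weeks its level changed by -0.42 in controls and by 0.42 in *hippo (RNAi)* animals on the log2 scale. The effects of these 3 members at 4 weeks were 2.39, 2.19 and 2.15, against 1.47, 1.32 and 1.31 at 3 weeks.

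**Figure D2:**
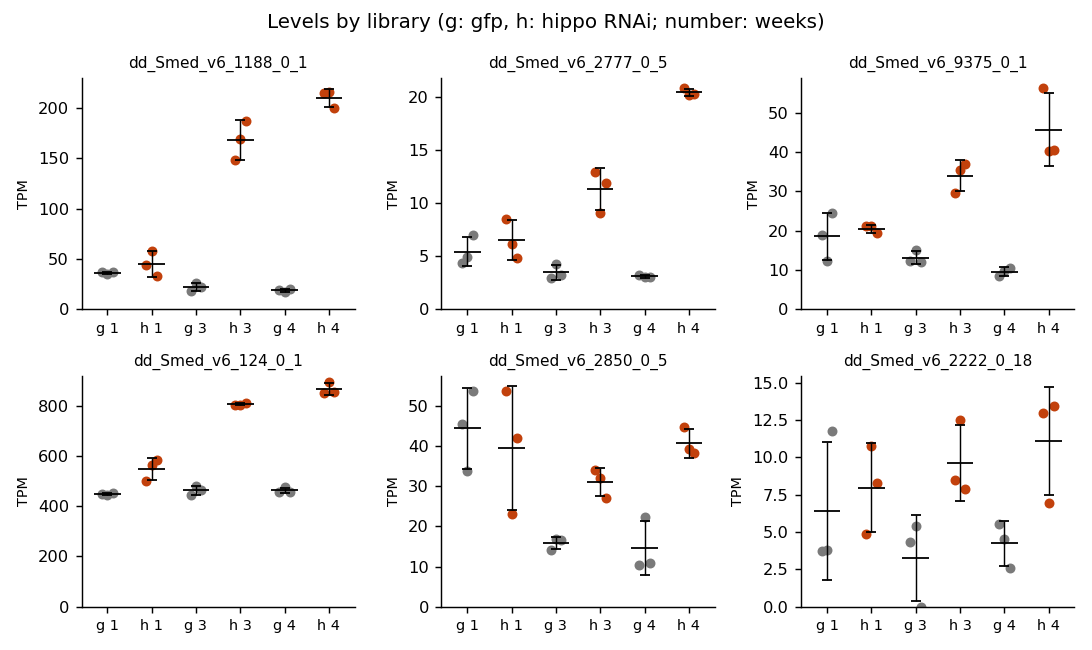
TPM of 6 members in each library, by treatment (g, *gfp* controls in grey; h, *hippo (RNAi)* in orange) and week. Dots are libraries, horizontal lines are means and bars are SD over 3 libraries. In dd_Smed_v6_1188_0_1, dd_Smed_v6_2777_0_5, dd_Smed_v6_9375_0_1 and dd_Smed_v6_124_0_1 the *hippo (RNAi)* libraries climb with time, whereas in dd_Smed_v6_2850_0_5 the controls drop and the *hippo (RNAi)* libraries at 4 weeks lie within the range of those at 1 week.

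The most abundant members had effects on both sides of the member medians. Transcript dd_Smed_v6_124_0_1 was between 444 and 482 TPM in all 9 control libraries. In *hippo (RNAi)* animals it was at 499, 566 and 583 TPM at 1 week, 804, 804 and 812 TPM at 3 weeks, and 849, 894 and 854 TPM at 4 weeks. Its *hippo (RNAi)* libraries were above all controls already at 1 week, and its effect went from 0.29 at 1 week to 0.80 and 0.90. For dd_Smed_v6_1017_0_1 the *hippo (RNAi)* libraries held 334, 364 and 405 TPM at 1 week, 523, 500 and 550 TPM at 3 weeks, and 565, 544 and 540 TPM at 4 weeks, over control means of 305, 280 and 265 TPM. For dd_Smed_v6_479_0_1 they held 241, 297 and 306 TPM, then 459, 473 and 499 TPM, then 492, 463 and 467 TPM, over control means of 235, 202 and 217 TPM. Both transcripts reached their level by 3 weeks, with overlapping values at 3 and 4 weeks. The highest level of all, in dd_Smed_v6_652_0_10, went with one of the smaller effects, 0.72 at 3 weeks and 0.83 at 4 weeks. That transcript had 802.8 ± 67.2 TPM at 1 week, 912 ± 56.7 TPM at 3 weeks and 1003 ± 89.5 TPM at 4 weeks in *hippo (RNAi)* animals (SD, n = 3), and 684 ± 24.1, 555 ± 24.8 and 563 ± 11.4 TPM in controls.

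Summed over the 120 members, controls held 6270 ± 191 TPM at 1 week, 5566 ± 180 TPM at 3 weeks and 5471 ± 56.6 TPM at 4 weeks (SD, n = 3). *hippo (RNAi)* animals held 7184 ± 341, 10218 ± 263 and 10855 ± 275 TPM. As a share of all transcripts the members went from 0.718% to 1.09% in *hippo (RNAi)* animals and from 0.627% to 0.547% in controls. The 19 members of at least 100 TPM made up 67.7% of the sum in *hippo (RNAi)* animals at 4 weeks, and their ratios to controls ran from 1.66 to 2.29 with a median of 1.90. The 20 members below 10 TPM had ratios from 1.74 to 6.60 with a median of 2.25. A given effect on log2(TPM + 1) needs a larger ratio at low levels. Moreover, 11 members passed the limit on levels only through the *hippo (RNAi)* libraries. The larger ratios of low members were thus partly built in. Level and effect at 4 weeks were nearly unrelated over the members (Pearson r = -0.05, Spearman rho = 0.08, n = 120, as a description of transcripts that share libraries).

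The median member was 0.79, 0.81 and 0.86 above the control mean in the *hippo (RNAi)* libraries of 3 weeks and 0.95, 0.94 and 0.88 above it in those of 4 weeks. At 1 week it was 0.11 above in library 252O, 0.22 in 253O and 0.24 in 254O. Library 252O was the lowest of its group for 85 members, or 70.8%, beside 42.9% of all transcripts of at least 5 TPM. At 3 weeks library 260O was the highest of its group for 68 members, or 56.7%, beside 28.4% of those transcripts. At 4 weeks library 269O was the lowest for 63, or 52.5%, beside 36.3%. Libraries 260O and 264O carry numbers in sequence with the controls, whereas the other *hippo (RNAi)* libraries of 3 and 4 weeks are 266O, 267O, 268O and 269O. The rule found 132 transcripts without those 4 libraries, 105 of them members.

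**Figure D3:**
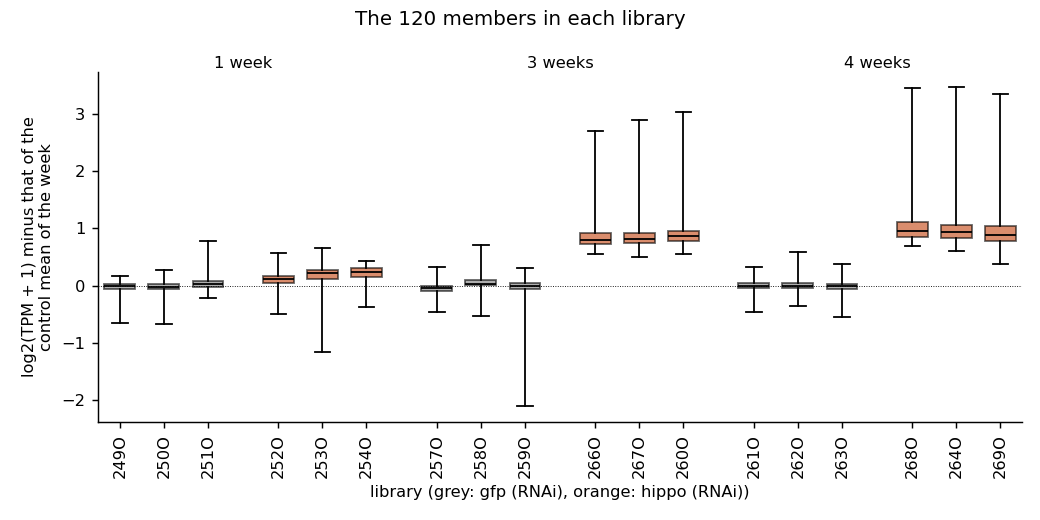
Distribution over the 120 members of log2(TPM + 1) minus the control mean of the same week, in each library. Boxes span the quartiles with the median as a line, and whiskers reach the lowest and highest member. *hippo (RNAi)* medians are between 0.11 and 0.24 at 1 week, between 0.79 and 0.86 at 3 weeks and between 0.88 and 0.95 at 4 weeks, and the low whisker of control library 259O is dd_Smed_v6_2222_0_18, listed at 0 there.

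The rule fixed differences between treatments within a week. Effects had to be below 0.3 at 1 week and at least 0.7 at 4 weeks, so the growth of the effect was built in. How that growth was split between the treatments was not set by the rule. In controls 112 of the 120 members were lower at 4 weeks than at 1 week, with a median difference of -0.18 on the log2 scale and a range from -1.55 to 0.25. Among all tested transcripts 53.5% were lower, with a median of -0.01. Every control library of 4 weeks was below every control library of 1 week for 68 members, beside 10.4% of tested transcripts and 14% of those of at least 5 TPM. In *hippo (RNAi)* animals the median difference from 1 to 4 weeks was 0.57 with a range from -0.14 to 2.21, and it was at least 0.7 for 28 members. Every *hippo (RNAi)* library of 4 weeks was above every one of 1 week for 112 members, beside 14.8% of tested transcripts and 22.9% of those of at least 5 TPM. The libraries of all weeks entered the choice of members, and the rule favoured low controls and high *hippo (RNAi)* libraries at 4 weeks. These shares are thus partly built in, and the differences too are given with no test.

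The growth of the effect between 1 and 4 weeks is the difference in *hippo (RNAi)* animals minus that in controls. The controls made up a median of 22.5% of it, with quartiles of 13.4% and 33.9%. For 10 members the controls made up more than 50%. They included dd_Smed_v6_2850_0_3, dd_Smed_v6_2850_0_4, dd_Smed_v6_2850_0_5 and the most abundant of the 10, dd_Smed_v6_602_0_1, named after its values were seen, whose control means were 269 TPM at 1 week and 205 TPM at 4 weeks, against 317 and 370 TPM under *hippo* RNAi. The 133 transcripts with a larger effect at 1 week, which the same late criteria chose, had a median control difference of -0.17 between 1 and 4 weeks.

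**Figure D4:**
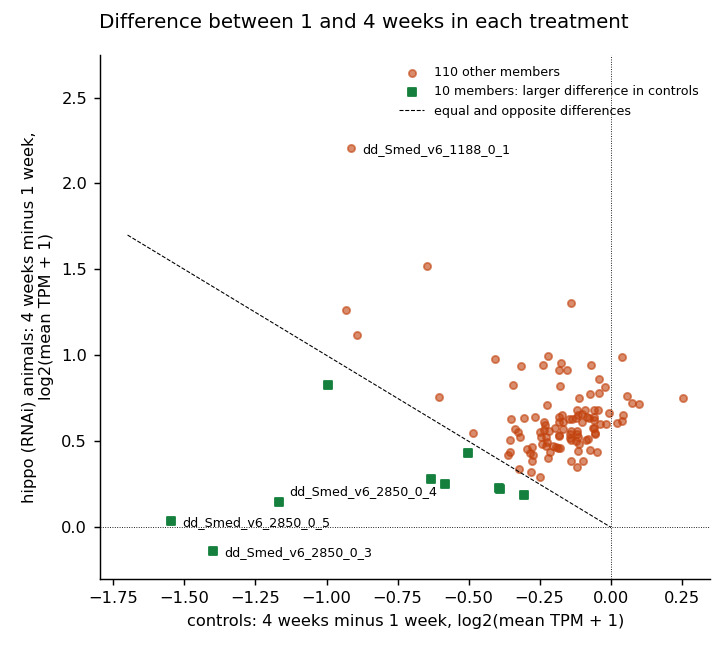
Difference between 1 and 4 weeks in log2(mean TPM + 1) for each of the 120 members, in controls (x axis) and in *hippo (RNAi)* animals (y axis). The dashed line marks equal and opposite differences, and the 10 members below it (green squares) have more than 50% of the growth of their effect in the controls, whereas the 110 others lie above it.

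The 3 transcripts that begin dd_Smed_v6_2850 were the clearest case. In controls dd_Smed_v6_2850_0_5 was at 45.5, 33.8 and 53.7 TPM at 1 week, 14.2, 16.8 and 16.5 TPM at 3 weeks, and 10.3, 22.2 and 10.9 TPM at 4 weeks. In *hippo (RNAi)* animals it was at 53.6, 23.1 and 41.9 TPM at 1 week, 34.0, 31.9 and 27.1 TPM at 3 weeks, and 44.6, 39.1 and 38.1 TPM at 4 weeks. Controls of 3 and 4 weeks lay below all controls of 1 week, while *hippo (RNAi)* libraries of 4 weeks lay within the range of those of 1 week. Control means of dd_Smed_v6_2850_0_3 were 52.5, 20.3 and 19.3 TPM over the 3 times and those of *hippo (RNAi)* animals 44.1, 44.9 and 40.02 TPM. For dd_Smed_v6_2850_0_4 control means were 127, 57.5 and 55.8 TPM, against 109.98, 103 and 122 TPM under *hippo* RNAi. These transcripts thus stayed near their early level in *hippo (RNAi)* animals and were lower in controls, and dd_Smed_v6_2850_0_3 was the single member with a lower mean in *hippo (RNAi)* animals at 4 weeks than at 1 week. Library 253O had the lowest value of its group in all 3 members at 1 week. The companion dd_Smed_v6_2850_0_2, named after its values were seen, differed far less between treatments. Its control means were 124, 98.5 and 99.9 TPM, against 109, 109 and 109 TPM under *hippo* RNAi. Its log2 fold change at 4 weeks was 0.13 (SE 0.072, adjusted p = 0.252 by limma).

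Of the other 6 members with most of the growth in controls, 4 are given here, named after their values were seen. Between 1 and 4 weeks dd_Smed_v6_5344_0_7 had control means of 23.5 and 14.8 TPM and *hippo (RNAi)* means of 25.5 and 31.2 TPM. For dd_Smed_v6_24587_0_1 the control means were 9.71 and 6.15 TPM and the *hippo (RNAi)* means 10.1 and 12.2 TPM. For dd_Smed_v6_4970_0_1 they were 22.2 and 16.6 TPM, against 25.3 and 29.9 TPM. The last, dd_Smed_v6_5082_0_2, went from 10.9 to 8.65 TPM in controls and from 13.0 to 14.9 TPM in *hippo (RNAi)* animals. In all 4 both treatments moved, in opposite directions, by less than their distance at 4 weeks.

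Controls were higher at 4 weeks than at 1 week in few members. The largest such differences were 0.25 for dd_Smed_v6_2222_0_17 and 0.10 for dd_Smed_v6_14133_0_1. The latter held 12.02, 14.2 and 14.997 TPM in controls of 1 week and 18.1, 14.8 and 11.5 TPM in those of 4 weeks, which overlap. In *hippo (RNAi)* animals it held 13.2, 13.8 and 17.4 TPM at 1 week, 25.9, 25.7 and 26.1 TPM at 3 weeks, and 27.8, 24.2 and 22.9 TPM at 4 weeks. Its controls varied as much within a week as between weeks, and its *hippo (RNAi)* libraries of 4 weeks lay on both sides of those of 3 weeks.

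Between 3 and 4 weeks the members moved little. The median difference in *hippo (RNAi)* animals was 0.07, and it was below 0 for 27 members. The effect was larger at 4 than at 3 weeks for 98 members, with a median growth of 0.10. It grew by more than 0.3 in 11 members, among them the 4 with the largest effects. The largest growth was 0.95 in dd_Smed_v6_17909_0_1, with *hippo (RNAi)* values of 9.18, 6.61 and 7.18 TPM at 3 weeks and 9.65, 11.1 and 9.95 TPM at 4 weeks. Its controls were at 2.58, 3.30 and 4.41 TPM at 3 weeks and 1.82, 1.74 and 2.38 TPM at 4 weeks, so that at levels of a few TPM both treatments took part. Over the members, effects at 3 and 4 weeks went together (Pearson r = 0.82, Spearman rho = 0.62, and r = 0.68 without dd_Smed_v6_1188_0_1), as the rule required both to be high. The effect at 1 week did not order the later ones (r = 0.03 with 3 weeks and -0.05 with 4 weeks), though the rule had narrowed its range.

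The effect was smaller at 4 than at 3 weeks by more than 0.3 in 1 member, dd_Smed_v6_2222_0_17, where it went from 1.49 to 0.72. Its controls were at 2.21, 5.69 and 1.32 TPM at 3 weeks and 5.77, 6.05 and 4.42 TPM at 4 weeks, and its *hippo (RNAi)* libraries at 10.6, 9.94 and 10.6 TPM and then 11.4, 8.86 and 8.33 TPM. The spread between control libraries at 3 weeks was as large as the difference between the weeks. The next smallest difference, -0.17 in dd_Smed_v6_4794_0_2, went from 12.3, 14.4 and 15.9 TPM at 3 weeks to 15.9, 13.6 and 13.1 TPM at 4 weeks in *hippo (RNAi)* animals, which overlap.

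Spread within groups was close to that of other transcripts, with a median SD of 0.077 in log2(TPM + 1) over the members and 0.068 over all transcripts of at least 5 TPM. The least even members in *hippo (RNAi)* animals were dd_Smed_v6_2222_0_18 and dd_Smed_v6_14219_0_1. The former held 8.46, 12.5 and 7.87 TPM at 3 weeks and 12.9, 6.96 and 13.4 TPM at 4 weeks in *hippo (RNAi)* animals, over controls of 4.36, 5.43 and 0 TPM and of 5.56, 4.57 and 2.60 TPM. Its libraries were separate in both weeks, by a narrow margin at 4 weeks. The latter held 26.3, 13.5 and 17.3 TPM at 3 weeks and 21.5, 24.6 and 19.8 TPM at 4 weeks, over controls of 6.43, 10.2 and 10.9 TPM and of 8.39, 7.83 and 7.72 TPM.

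Transcripts that shared an assembly number with a member but did not meet the rule were the measure least bound to the choice of members. There were 89 such companion transcripts that averaged 1 TPM or more, in 32 numbers that held 37 members. They come from the same libraries and can share reads with the members, so they are no separate experiment. The limma fit on log2(TPM + 1) called 33 of the 89 higher in *hippo (RNAi)* animals at 3 weeks, or 37.1%, beside 10.2% of all tested transcripts, and 3 lower, or 3.37%, beside 5.27%. At 4 weeks it called 31 higher, or 34.8%, beside 13.0%, and 3 lower, or 3.37%, beside 8.54%. At 1 week it called 6 higher, or 6.74%, beside 0.654%, and 0 lower. The number of these few calls varied with the library left out. Without control libraries 249O, 250O and 251O in turn, 2, 3 and 7 companions were called, or 2.25%, 3.37% and 7.87%. Without *hippo (RNAi)* libraries 252O, 253O and 254O in turn, 9, 1 and 1 were called, or 10.1%, 1.12% and 1.14%. Beside them, 0.184%, 0.463%, 0.626%, 1.13%, 0.157% and 0.115% of all tested transcripts were called. With the libraries of 1 week alone 0 companions were called, beside 0.0244% of all tested transcripts. Median log2 fold changes of the companions were 0.19, 0.36 and 0.40 at the 3 times, against 0.02, 0.00 and 0.00 over all tested transcripts.

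Companions thus leaned to the same side as the members, though most were not called. For 36 of the 89 the effect at 1 week was already 0.3 or more, so many were not late by the rule. They were also unevenly spread over the numbers, with number 3286 holding 18 tested transcripts and number 2222 holding 11, members included. The calls were uneven as well. At 4 weeks all tested companions of number 2577 and several of number 2222 were called higher. In number 3286 the companion dd_Smed_v6_3286_0_14 alone was called higher. The share called was higher at higher levels, since among the 55 companions of at least 5 TPM 24 were called higher at 4 weeks, or 43.6%, and among all transcripts of that level 21.7% were. Without libraries 266O, 267O, 268O and 269O, where 3 and 4 weeks keep 1 *hippo (RNAi)* library each, 19 of 86 tested companions were called higher at 3 weeks, or 22.1%, beside 5.36% of all tested transcripts, and 24 at 4 weeks, or 27.9%, beside 7.03%. At 4 weeks 18 of the 32 numbers had a companion called higher, 3 had one called lower, and 1 had both.

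Among the companions called higher, dd_Smed_v6_2577_0_9 had a log2 fold change of 1.40 at 4 weeks (SE 0.096, limma adjusted p = 5.63e-08), with control libraries at 9.90 ± 1.09 TPM and *hippo (RNAi)* libraries at 27.7 ± 1.60 TPM (SD, n = 3). The 4 other companions of that number had log2 fold changes from 0.57 to 1.19 and were called as well, beside an effect of 0.96 for the member, dd_Smed_v6_2577_0_7. The tested transcripts of number 2577 were therefore on the same side at 4 weeks. Whether their courses differed from each other was not tested. From 1 to 4 weeks the log2 fold change went from 0.53 to 1.40 in dd_Smed_v6_2577_0_9 and from 0.74 to 0.91 in dd_Smed_v6_2577_0_6. The latter averaged 4.18 TPM, and its change between these times was 0.17 (SE 0.31, limma adjusted p = 0.819). Number 5344 was the one with calls in both directions. Its companion dd_Smed_v6_5344_0_1 was higher, 6.97 ± 0.473 against 18.5 ± 2.34 TPM, and dd_Smed_v6_5344_0_6 was lower, 7.18 ± 0.829 against 4.61 ± 0.203 TPM (log2 fold change -0.54, SE 0.14, limma adjusted p = 0.0102). These companions were named after their values were seen.

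Other numbers held companions on the other side. In number 6988 the companion dd_Smed_v6_6988_1_1 was called lower at 4 weeks (log2 fold change -0.31, SE 0.064, limma adjusted p = 0.00201), while the member dd_Smed_v6_6988_0_1 had an effect of 1.14. The member held 25.1% of the TPM of its number in controls and 50.2% in *hippo (RNAi)* animals at 4 weeks. In number 916 the companion dd_Smed_v6_916_0_1 had 18.8 ± 1.13 TPM over controls and 15.2 ± 1.64 TPM over *hippo (RNAi)* libraries (limma adjusted p = 0.0358). These 2 companions were also named after their values were seen.

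The largest companion differences at 4 weeks in either direction were not called. They were 2.51 for dd_Smed_v6_652_0_7 (SE 1.24, limma adjusted p = 0.183), 2.10 for dd_Smed_v6_2222_0_27 (SE 1.08, adjusted p = 0.203 by limma), -2.17 for dd_Smed_v6_652_0_9 (SE 1.01, adjusted p = 0.154 by limma) and -0.87 for dd_Smed_v6_2222_0_21 (SE 0.93, adjusted p = 0.588 by limma). Their standard errors were of about 1 on the log2 scale, so that libraries of a group differed widely. Number 652, which held the most abundant member, also held dd_Smed_v6_652_0_11, with a mean of 794 TPM over the 18 libraries and a log2 fold change of -0.11 at 4 weeks (SE 0.059, adjusted p = 0.241 by limma).

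**Figure D5:**
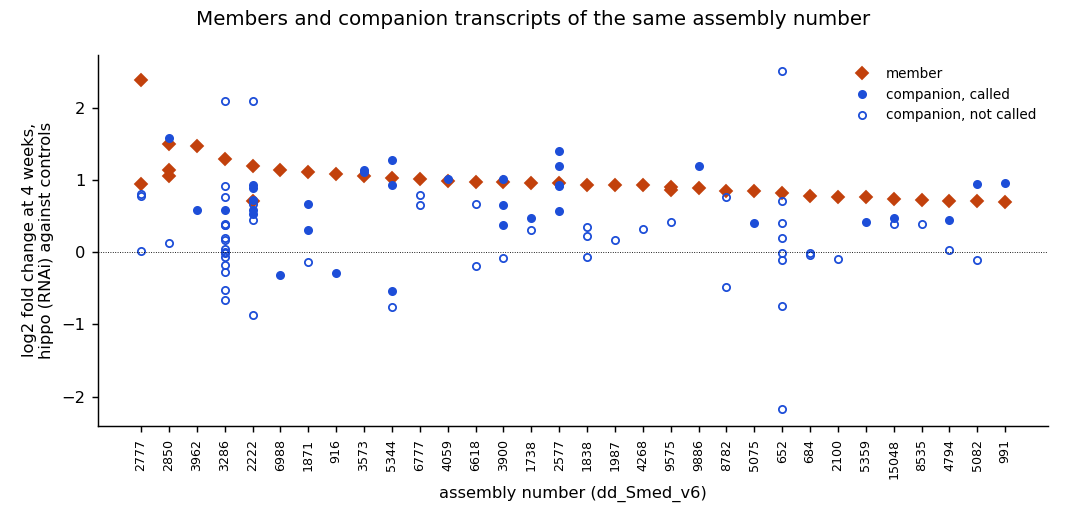
Log2 fold changes at 4 weeks on log2(TPM + 1), *hippo (RNAi)* against controls, for members (orange diamonds) and companions (blue circles, filled where the adjusted p was below 0.05) of the 32 assembly numbers with a companion. Numbers are ordered by their highest member, and members lie high by the rule. The 31 companions called higher and 3 called lower are unevenly spread over the numbers.

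The effect was also taken on the TPM summed over all transcripts of a number. Of the 32 numbers, 12 met the values of the rule on their sums. Sums lay below the member's own effect for most of these 37 members and above it for others, such as 1.09 against 0.96 for dd_Smed_v6_2577_0_7 and 0.90 against 0.72 for dd_Smed_v6_2222_0_17. The summed effect at 4 weeks ran from 0.24 to 1.20 with a median of 0.72, and it was below 0.35 for 4 numbers. For number 652 the summed effect was 0.35 against 0.83 for the member, and for dd_Smed_v6_2777 it was 1.20 against 2.39 and 0.94 for its members. The 83 members that were the single tested transcript of their number had a median effect of 0.90 at 4 weeks, and the 37 others one of 0.94. Within groups the former had a median SD of 0.069 and the latter one of 0.11. Members of shared numbers thus had like effects and more spread between libraries, and how the authors' quantification split reads among them was not tested.

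Whether the effect on companions grew with time was tested as an interaction in the same fit. At 3 weeks 9 of the 89 had a more positive effect than at 1 week, or 10.1%, beside 3.77% of all tested transcripts, and 0 had a less positive one. At 4 weeks 17 had a more positive effect than at 1 week, or 19.1%, beside 6.25%, and 1 had a less positive one. The companion dd_Smed_v6_2577_0_9 was among them, with 0.87 more at 4 weeks than at 1 week (SE 0.14, limma adjusted p = 0.000762). So was dd_Smed_v6_2850_0_6, which had 2.42 more (SE 0.57, limma adjusted p = 0.0135), with control means of 6.003, 1.44 and 1.52 TPM and *hippo (RNAi)* means of 3.24, 5.08 and 6.69 TPM at the 3 times. Its controls were lower late in the series, as were those of the 3 members of its number. The companion dd_Smed_v6_916_0_1 was the one with a less positive effect.

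Leaving out 1 library of 3 or 4 weeks at a time and choosing anew gave between 114 and 132 transcripts. The library left out, which then had no part in the choice, lay beyond all libraries of the other treatment for every transcript chosen in 10 of the 12 cases, beside 34.6% to 46.0% of all transcripts of at least 5 TPM. The exceptions were 1 transcript each for library 268O, with 113 of 114, and library 269O, with 127 of 128. The transcripts were chosen for large effects and separate libraries in the remaining data, whereas those of the comparison were not. High counts were thus largely built in and lend the members no support. The library had the same week and controls as those used for the choice, so these counts describe how alike the libraries of a group were.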

How the data were processed

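Whole-animal polyA RNA was sequenced as stranded paired-end libraries. The deposited table held TPM per dd_Smed_v6 transcript, which the authors estimated with kallisto 0.43.0 (per the labels). The authors tested with sleuth and DESeq2, with no model stated in the sources used here. Columns were matched to samples by title, and 0 columns of other samples were found. TPM values carry no depth, so no counting interval was given. Members were chosen by the stated rule with pandas 2.3.3 in Python 3.11.15. Members and lists were chosen with earlier results of these data known. The limma 3.58.1 fit (R 4.3.3, with trend) on log2(TPM + 1) took all 18 libraries in 6 groups over 28735 transcripts of at least 1 TPM, with Benjamini-Hochberg adjustment at 0.05, and was tested on simulated data. Fold changes on this scale understate those of low transcripts. Named members were those with the largest mean effects, the highest levels, the largest and smallest difference between 4 and 3 weeks, the extremes of control change, the largest spread, numbers with several members and those nearest the thresholds. Of the companions, the largest differences at 4 weeks in each direction were named. The listed cell cycle genes gave identifiers and names only, and their fold changes and p-values were not used. Alternatives covered pseudocounts, limits, scaling, library omission and sums per number. Figures used matplotlib 3.10.9.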

Additional observations from a re-analysis of the deposited data

Results flagged for a closer look

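For 9 of the 89 companion transcripts the effect of *hippo* RNAi was more positive at 3 weeks than at 1 week. Among all tested transcripts 3.77% had such a difference. For 17 companions the effect was more positive at 4 weeks than at 1 week, beside 6.25% of all tested transcripts. Both counts were noticed because the difference between times was itself tested, by the interaction term of the limma fit at an adjusted p below 0.05. At an unadjusted p below 0.05 the counts were 28 and 23. No share over all tested transcripts was taken at that level, so nothing is read from these 28 and 23.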

How the results depend on the processing

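The count of members followed the limits of the rule. It was 335 with effects of at least 0.5, 18 with effects of at least 1, 42 with an effect below 0.15 at 1 week and 253 with no limit at 1 week. It stayed between 100 and 168 under other pseudocounts, level minimums, scalings, sums per number and omission of libraries 266O, 267O, 268O and 269O, and between 106 and 146 when 1 library was left out. Calls of higher transcripts at 1 week, 188 in the fit of all libraries, were 7 with the libraries of that week alone. They ranged from 33 to 325 when 1 library was left out, with 53 without control library 249O, 325 without 252O, 45 without 253O and 33 without 254O. Between 1 and 9 companions and between 3 and 31 members were called higher at 1 week when 1 library was left out. Beside them, 0.115% to 1.13% of all tested transcripts were called. These counts were an alternative chosen after seeing the data. Without libraries 266O, 267O, 268O and 269O, where limma takes the spread of the lone libraries from the other groups, calls were 1541 of 2928 at 3 weeks, 2023 of 3742 at 4 weeks and 19 of 33 companions at 3 weeks. Leaving out 1 library gave 2345 to 2981 calls at 3 weeks and 3115 to 3797 at 4 weeks, 27 to 36 and 30 to 32 companions, and medians of -0.19 to -0.16 for members in controls and 0.05 to 0.08 in *hippo (RNAi)* animals from 3 to 4 weeks. Of 920 alternative effects of named members, 912 moved by less than the spread between libraries, 8 moved by more and 0 changed sign. The cause of these shifts was not tested. No paired analysis was possible because the labels give library numbers and no replicate number shared between groups.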
